A study of Mus musculus with 12 samples.

Results

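Oaz1-ps, an annotated pseudogene copy of the antizyme gene Oaz1, was described together with 9 protein-coding genes of the polyamine pathway: Oaz1, Oaz2, Azin1, Odc1, Amd1, Srm, Sms, Sat1 and Smox. The 10 genes were taken by symbol from a table of 55450 genes. Oaz1-ps was chosen by its measured counts, because it was lower in knockout than in wild-type liver in these same libraries. Its liver values, and those of Oaz1, which shares sequence with it, are therefore given below as a description with no test. The other 8 genes were taken for their roles in the pathway. The study sequenced total RNA from 2 organs, brain and liver, of male mice at an age of 7 to 9 weeks. The mice carried Vaultrc5, which encodes a vault RNA (Vaultrc5+/+), or lacked it (Vaultrc5-/-). There were 3 libraries for each of wild-type brain, knockout brain, wild-type liver and knockout liver, 12 in all. The titles name the controls flx, and the genotype labels name them wild-type. The labels do not give how the deletion was made, whether the libraries of a group came from separate animals, or whether the brain and liver of one number came from one animal. The p-values below measure the spread between these libraries, which may be partly technical.

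Polyamines (putrescine, spermidine and spermine) are small positively charged molecules that bind nucleic acids and are needed for growth. Ornithine decarboxylase, the product of Odc1, makes putrescine, and spermidine synthase (Srm) and spermine synthase (Sms) extend it with aminopropyl groups that come from the reaction of S-adenosylmethionine decarboxylase (Amd1). Antizymes (Oaz1, Oaz2) bind ornithine decarboxylase and send it to the proteasome, antizyme inhibitor (Azin1) binds antizyme in its place, and spermidine/spermine acetyltransferase (Sat1) and spermine oxidase (Smox) take the chain back down. Antizyme messages hold a stop codon inside the coding region that ribosomes pass by shifting the reading frame, and polyamines raise the frequency of that shift.

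The brain libraries held 14844971 to 18567381 counts in total and the liver libraries 23247449 to 27155480. The labels were checked on 3 genes: Vaultrc5 had 1 to 4 counts in wild-type brain, 33 to 48 in wild-type liver and 0 in all 6 knockout libraries. The neuronal gene Snap25 was present at 31003 counts or more in each brain library and at 3 or fewer in liver, and the hepatocyte gene Alb at most 5 in brain and at least 714287 in liver.

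The sequences of the pseudogene and its parent are shown first, because the values of both genes depend on how far they can be told apart. Oaz1-ps is a single block of 685 bases on chromosome 17, 17345456 to 17346140, minus strand (GRCm38, GENCODE release M21, which classes it as a processed pseudogene). Oaz1 lies on chromosome 10, 80826656 to 80829290, plus strand, and is spliced. The 685 bases match the coding region of Oaz1 from its start codon to its stop codon. The first 300 bases of Oaz1-ps, and the first 296 coding bases of the full-length annotated Oaz1 transcript, are given in the 5′ to 3′ direction (chr17:17345841-17346140, minus strand, and exons within chr10:80826760-80828468, plus strand). Capitals mark the base that differs, and in Oaz1-ps also the 4 bases that the annotation leaves out of that transcript.
Oaz1-ps: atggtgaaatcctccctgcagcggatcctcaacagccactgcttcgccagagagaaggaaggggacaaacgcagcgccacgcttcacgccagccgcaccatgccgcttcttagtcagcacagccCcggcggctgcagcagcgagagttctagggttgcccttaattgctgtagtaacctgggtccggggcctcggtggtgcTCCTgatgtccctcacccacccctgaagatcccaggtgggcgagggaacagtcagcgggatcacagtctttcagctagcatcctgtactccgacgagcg
Oaz1, full-length model: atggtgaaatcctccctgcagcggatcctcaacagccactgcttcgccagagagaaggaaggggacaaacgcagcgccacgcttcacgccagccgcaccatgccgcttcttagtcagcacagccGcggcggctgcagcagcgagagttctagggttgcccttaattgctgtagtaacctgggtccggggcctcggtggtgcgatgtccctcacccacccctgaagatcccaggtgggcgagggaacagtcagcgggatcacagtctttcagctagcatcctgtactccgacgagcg

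Over the whole 685 bases, 680 were identical to the full-length Oaz1 transcript, 1 was a substitution and 4 had no counterpart in the annotated transcript. The substitution is G125C, counted from 1 at the first base of Oaz1-ps, with the base of Oaz1 first. The 4 bases stand at positions 202 to 205 of Oaz1-ps, and their genomic counterparts in Oaz1, at chromosome 10, 80828292 to 80828295, are skipped by the annotation as if they were a tiny intron. They fall on the frameshift site, shown next for both antizyme genes in windows of 30 bases that end at chr10:80828310 in Oaz1 and chr9:65686287 in Oaz2, both on the plus strand. Capitals mark those of the 7 site letters TCCTGAT that each annotated model keeps.
Oaz1-ps: ctcggtggtgcTCCTGATgtccctcaccca
Oaz1, short model: ctcggtggtgcTCCTGATgtccctcaccca
Oaz1, model without 1 site letter: cctcggtggtgcTCCGATgtccctcaccca
Oaz1, full-length model: gggcctcggtggtgcGATgtccctcaccca
Oaz2, model with all site letters: ctctgtggtgcTCCTGATgcccctcaccca
Oaz2, longest coding model: cctctgtggtgcTCCGATgcccctcaccca

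Oaz1-ps and the short Oaz1 model keep all 7 letters, which hold the stop codon TGA. One Oaz1 model and the longest coding model of Oaz2 keep 6, and the full-length Oaz1 model keeps 3. The letters left out by these models are present in the genome at that place. Read on the transcript strand, TCCTGAT occurred in 0.229% of 4711000 windows of 30 bases cut from all protein-coding transcripts. The short Oaz1 model, which starts inside the gene, was identical to Oaz1-ps over all 513 bases they share.

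A single base thus separated Oaz1-ps from the spliced Oaz1 coding sequence. Of the 636 stretches of 50 bases in Oaz1-ps, 586 (92.1%) also occurred in an annotated Oaz1 transcript, and the other 50 were the 50 stretches that cover position 125. From the side of the full-length Oaz1 transcript, 52.2% of its stretches of 50 bases occurred in Oaz1-ps. Amd1 had more of its sequence elsewhere than Oaz1, with 87.6% of its stretches of 50 bases found in 8 other genes, among them its retrocopy Amd2. The figure was 42.2% for Odc1 (15 other genes), 28.7% for Sms (6), 12.0% for Oaz2 (2), 6.62% for Sat1 (2) and 2.40% for Srm (1). Azin1 and Smox shared none. In GRCm38 these genes lie at chr9:65668001-65690300 (Oaz2), chr15:38487427-38519266 (Azin1), chr12:17544794-17551505 (Odc1), chr10:40287458-40302186 (Amd1) and chr4:148591503-148594993 (Srm). Sms and Sat1 are on the X chromosome, at chrX:157443855-157492287 and chrX:155213132-155216449, and Smox is at chr2:131491496-131525922.

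**Figure D1:**
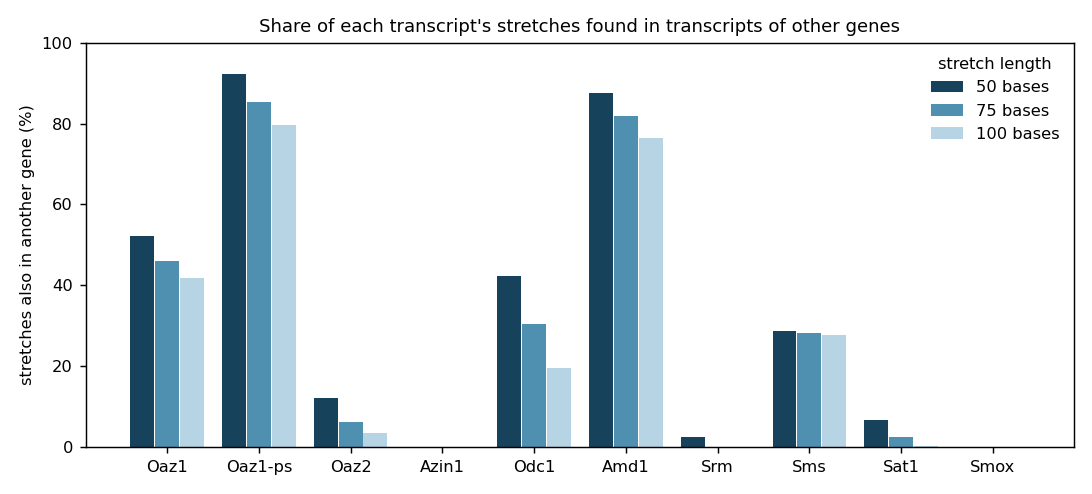
Each bar gives the share (%) of all stretches of 50, 75 or 100 bases of a gene's longest annotated coding transcript (for Oaz1-ps, its only transcript) that also occur in an annotated transcript of another gene. Oaz1-ps and Amd1 are the highest at each length, at 92.1% and 87.6% for 50 bases, while Azin1 and Smox are at 0.

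The deposited values were estimated counts, which need not be whole where a read is divided among genes. Oaz1, Oaz1-ps and Odc1 held fractional counts in 12 of 12 libraries, Amd1 and Sms in 11, Oaz2 in 1, and Azin1, Srm, Sat1 and Smox in 0. The fractions of Oaz1 and Oaz1-ps added up to a whole number, within 0.02, in all 12 libraries, so no fraction of a count was left over for another gene. Among the members with fractional counts in at least 6 libraries, no other gene paired with one in this way in every such library. The nearest were Sms with Sms-ps, in 9 of 11, and Amd1 with Amd-ps3, in 6 of 11. The summed relatives of Odc1 held 0.489% to 13.6% of the counts of that family and those of Sms 1.22% to 10.7%. The relatives of Amd1 held at most 2.04% of its family, although they share more of its sequence.

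In liver Oaz1-ps stood at 14.0, 17.5 and 18.4 CPM (the count divided by the library size in megareads, with TMM effective sizes over the 12 libraries) in the wild type. It stood at 7.33, 7.55 and 7.77 CPM in the knockout. The highest knockout library was well under the lowest wild-type one, and the fitted log2 difference, knockout minus wild type, was −1.13 ± 0.14 (SE, n = 3 per group). This is the value by which the gene was chosen. Oaz1, the parent antizyme, stood at 184, 162 and 151 CPM in wild-type liver and at 154, 128 and 139 CPM in knockout liver. These ranges overlapped by 1 library on each side, with a log2 difference of −0.23 ± 0.11 (SE). Within the 3 same-numbered pairs of liver libraries, the knockout library was the lower one for Oaz1 in all 3.

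Brain libraries took no part in the choice. There Oaz1-ps stood at 3.58, 3.92 and 2.81 CPM in the wild type and at 2.23, 0.863 and 2.65 CPM in the knockout. The groups did not overlap, but the gap between the lowest wild-type and the highest knockout library was small, and knockout replicate 2 lay far under the other libraries. In deposited counts the wild-type values were 80.94, 95.60 and 65.81 and the knockout values 45.04, 19.57 and 57.77. The log2 difference was −0.85 ± 0.40 (SE), with an unadjusted p of 0.0692 and a Benjamini-Hochberg adjusted p of 1 in edgeR's quasi-likelihood test, so it did not pass. Without knockout replicate 2 the difference was −0.50. Brain Oaz1 stood at 60.5, 54.9 and 61.0 CPM in the wild type and at 57.2, 54.3 and 56.0 CPM in the knockout, a log2 difference of −0.09 ± 0.08 (SE) with overlapping groups.

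Because the pair drew on shared reads, the split between them was also taken as 1 quantity. Oaz1-ps received 5.59%, 6.67% and 4.41% of the summed counts of the pair in wild-type brain and 3.75%, 1.56% and 4.52% in knockout brain. The groups overlapped. The means were 5.56% ± 1.13 and 3.28% ± 1.53 (SD, n = 3), a difference of −2.28 points (two-sided exact permutation p = 0.2; with 3 against 3 the test cannot go under 0.1). Without knockout replicate 2 it was −1.42 points. In liver the wild-type shares were 7.07%, 9.76% and 10.8% and the knockout shares 4.55%, 5.56% and 5.30%, without overlap. The liver means were 9.22% ± 1.93 and 5.14% ± 0.526 (SD, n = 3), given with no test. Thus most counts of the pair went to Oaz1 in every library, and the share given to the pseudogene ran from 1.56% to 10.8%. Divided by merged exon length (2558 bases for Oaz1, 685 for Oaz1-ps), its share ran from 5.60% to 31.2%. With the 1071 bases of the full-length Oaz1 transcript in place of 2558, the share of the pseudogene would be lower.

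The sum of the pair does not depend on how reads were divided between them. In liver it was 198, 179 and 170 CPM in the wild type and 161, 136 and 147 CPM in the knockout, with a log2 difference of −0.30 ± 0.10 (SE). The liver groups did not overlap in the sum either. In brain the sum was 64.1, 58.8 and 63.8 CPM against 59.4, 55.2 and 58.7 CPM. The brain groups overlapped, and the log2 difference was −0.12 ± 0.08 (SE).

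**Figure D2:**
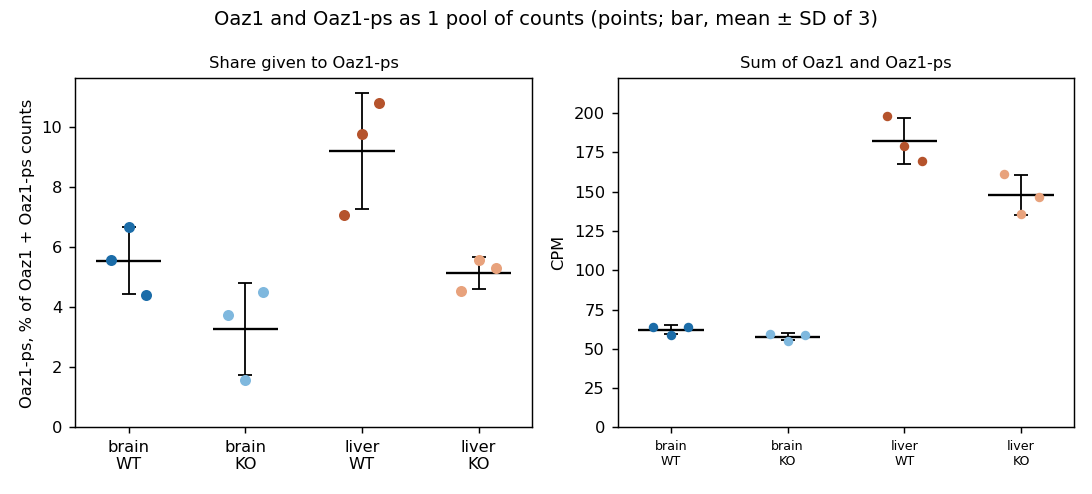
Left, the share of the pair's summed counts given to Oaz1-ps (%) in each library, by tissue and genotype (WT, wild type; KO, knockout). Right, the CPM of Oaz1 and Oaz1-ps added together. Points are libraries, and bars the mean ± SD of 3. Wild-type liver lies above knockout liver in both panels without overlap, while the brain groups overlap in both.

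The surroundings of Oaz1-ps held 24 other annotated genes within 500 kb. The pseudogene itself lies inside an intron (17342734 to 17357596) of AC154200.1, a long intergenic non-coding RNA gene on the same strand, which had 0 to 5 counts per library. Of the 24 neighbours, 11 were tested in brain and 8 in liver. In either genotype comparison 0 of them passed, as did 0% of all genes tested. Riok2, a kinase of ribosome maturation and the nearest protein-coding gene, differed by −0.29 ± 0.13 (SE, log2) in brain and by −0.16 ± 0.13 (SE) in liver. Its brain groups did not overlap, at 13.34 to 15.2 CPM in the wild type and 10.2 to 13.3 CPM in the knockout, and it was 1 of 11 tested neighbours without overlap there, against 4.23% of all genes. In edgeR its brain difference did not pass (adjusted p = 1), and its liver groups overlapped. Lnpep, a membrane aminopeptidase, differed by −0.01 ± 0.10 (SE) in brain and by 0.00 ± 0.07 (SE) in liver.

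In brain 265 pseudogenes of the processed and unprocessed classes were tested and had fractional counts in every brain library. Their median log2 difference between genotypes was 0.023, and 8 lay at or below the value of Oaz1-ps, itself included.

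The remaining members showed no difference between genotypes that passed the test. In brain 0 of 10 members passed at an adjusted p of 0.05, as did 0% of the 18075 genes tested, and 0 had an unadjusted p under 0.05, against 0.675% of all genes. The signs were negative for 9 of 10. Only Oaz1-ps had groups that did not overlap, against 4.23% of all genes. The differences of the 8 genes other than the pair ran from −0.16 ± 0.13 (SE) for Smox to 0.05 ± 0.16 (SE) for Srm. In liver 0 of the 8 passed, as did 0% of 15329 genes (blocking on replicate number, 2 genes passed and still 0 of the 8), and none of their groups stood apart, against 9.64% of all genes. The adjusted p-values of the 8 in liver were 0.992 to 0.999 (edgeR, without that block).

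Antizyme 2 (Oaz2) stood at 23.9, 25.1 and 22.3 CPM in wild-type liver and at 24.5, 21.6 and 22.0 CPM in knockout liver. Its log2 difference was −0.06 ± 0.09 (SE) there and −0.03 ± 0.09 (SE) in brain. The genotypes overlapped in both tissues. Azin1, the inhibitor of antizymes, stood at 131, 136 and 133 CPM in wild-type liver and at 106, 114 and 153 CPM in knockout liver. The knockout libraries lay on both sides of the wild type, and the log2 difference was −0.09 ± 0.15 (SE).

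Odc1, the target of the antizymes, stood at 41.1, 42.8 and 45.3 CPM in wild-type liver and at 52.9, 53.6 and 39.4 CPM in knockout liver. Knockout replicates 1 and 2 were above all wild-type libraries and replicate 3 was below them. The log2 difference was 0.18 ± 0.12 (SE). Sat1, the acetyltransferase of the catabolic arm, had the same arrangement, with 35.7, 33.7 and 34.4 CPM in the wild type and 43.7, 41.5 and 31.0 CPM in the knockout. Its log2 difference was 0.17 ± 0.12 (SE). Neither gene passed the test (edgeR adjusted p = 0.992 for both).

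The liver differences of Amd1, Srm, Sms and Smox were −0.11 ± 0.14, 0.12 ± 0.17, 0.10 ± 0.17 and 0.02 ± 0.24 (log2, SE). Smox, at 2.89, 4.00 and 2.47 CPM in knockout liver, was the member with the lowest counts and the widest error there. In brain the wild-type and knockout ranges of Amd1, Srm, Sms, Sat1 and Smox overlapped. Sms, for example, stood at 61.8, 73.5 and 70.8 CPM in the wild type and at 62.1, 66.9 and 61.2 CPM in the knockout. The test of whether the genotype difference itself differed between tissues called 0 of the 8 members and 0% of 20141 genes. For the pair this difference, liver minus brain, was −0.17 ± 0.14 (SE) for Oaz1 and −0.30 ± 0.42 (SE) for Oaz1-ps, given with no test.

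**Figure D3:**
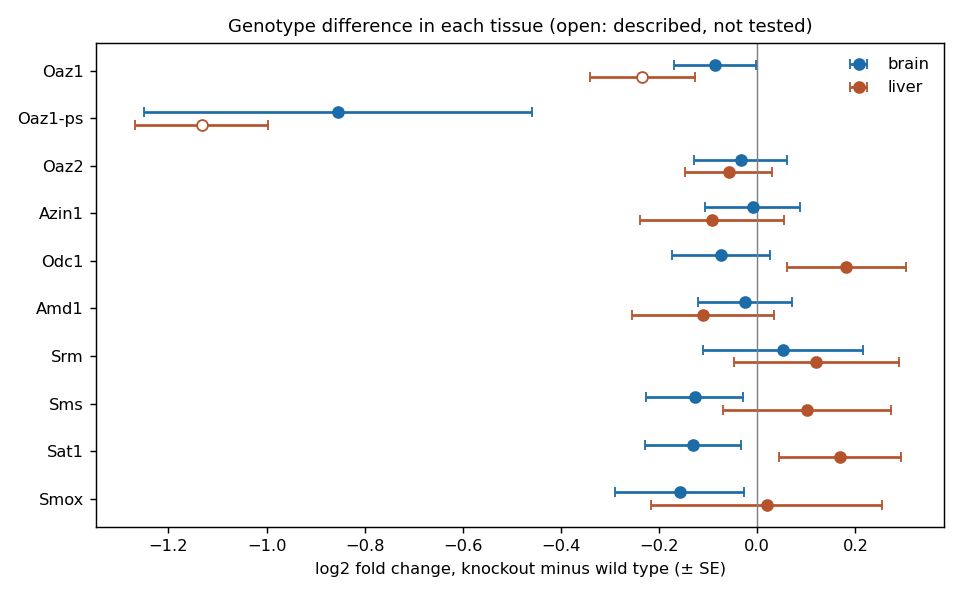
Log2 difference between knockout and wild type (x axis) for each member (y axis) in brain and liver, with bars of ± 1 SE from edgeR. Open points are described without a test. Oaz1-ps lies at −0.85 in brain and −1.13 in liver, and the 8 genes other than the pair lie between −0.16 and 0.18.

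Beside these liver values, the levels of markers of other cell types were as follows. The summed level of 4 red-cell genes was 13.4 to 30.9 CPM in wild-type liver and 34.45 to 50.2 CPM in knockout liver, with 4 of 4 genes higher. The 4 Kupffer-cell genes summed to 123 to 168 CPM against 133 to 322 CPM, and the 4 microglia and macrophage genes to 71.6 to 97.9 CPM against 75.5 to 160 CPM, with 4 of 4 higher in each list and none at 0 in all liver libraries. None of these 12 genes passed the test, and the part of these cells in the values of Oaz1-ps and Oaz1 was not tested. The 4 endothelial genes summed to 154 to 184 CPM in wild-type and 172 to 190 CPM in knockout liver, and the 4 cholangiocyte genes to 12.4 to 17.4 CPM against 8.98 to 23.5 CPM, with 4 of 4 higher in each list. Of 5 hepatocyte genes 1 was higher, with sums of 70970 to 90290 CPM against 56570 to 91390 CPM. In brain 4 oligodendrocyte genes summed to 1281 to 4439 CPM in the wild type and 1435 to 2334 CPM in the knockout, with 0 of 4 higher and a median log2 difference of −0.572. The 4 astrocyte genes summed to 409.6 to 676.6 CPM against 418.8 to 580 CPM, with 1 of 4 higher and a median of −0.275. The 3 choroid plexus genes summed to 0.7797 to 311.2 CPM against 2.955 to 446.6 CPM, with 1 of 3 higher, so brain libraries of one group differed widely in them. None of the genes of these lists passed the genotype test, and their part in the values of the members was not tested. In brain 4 endothelial genes summed to 37.3 to 44.4 CPM in the wild type and 44.6 to 47.9 CPM in the knockout, and 2 of 4 were higher. In bulk tissue fewer cells of a type and less RNA per cell cannot be told apart.

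Members were next compared between tissues. The wild-type and the knockout liver libraries both entered the comparison by which Oaz1-ps was chosen, so the tissue differences of Oaz1-ps and Oaz1 are given with no test in either genotype. Of the other 8 members, 7 passed the edgeR test between wild-type brain and wild-type liver, against 78.6% of the 18850 genes tested, so this share is near the background of 2 such unlike organs. Sms, Smox, Oaz2 and Amd1 were higher in brain, as were 43.9% of all genes. Sat1, Odc1 and Azin1 were lower in brain, as were 34.7%. Srm did not pass with TMM scaling. Between knockout brain and knockout liver 6 of these 8 passed, against 78.7% of 18785 genes (43.5% higher and 35.2% lower in brain).

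The tissue differences of both antizyme genes had opposite signs. Oaz2 stood at 55.9, 65.9 and 62.0 CPM in wild-type brain, above every wild-type liver library. Its log2 difference, brain minus liver, was 1.37 ± 0.11 (SE) in the wild type (edgeR adjusted p = 1.17e-05) and 1.39 ± 0.10 (SE) in the knockout. For Oaz1 the fitted difference was −1.49 ± 0.12 (SE) in the wild type and −1.34 ± 0.10 (SE) in the knockout. The corresponding values for Oaz1-ps were −2.26 ± 0.19 and −1.98 ± 0.37 (SE). The share of the pair given to Oaz1-ps was lower in wild-type brain than in wild-type liver, a difference of −3.66 points, given with no test because its liver libraries are those of the choice. Azin1 stood at 90.5, 104 and 97.1 CPM in wild-type brain, under its liver values, at −0.45 ± 0.10 (SE, adjusted p = 0.00305 in edgeR). In the knockout the difference of Azin1 was −0.37 ± 0.16 (SE) and did not pass (edgeR adjusted p = 0.0626).

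Odc1 stood at 23.2, 22.2 and 26.2 CPM in wild-type brain, a log2 difference from liver of −0.85 ± 0.11 (SE, edgeR adjusted p = 0.000177). In the knockout it was −1.10 ± 0.14 (SE). Amd1, which supplies the aminopropyl groups, stood at 69.8, 67.6 and 73.8 CPM in wild-type brain and at 50.5, 42.8 and 59.5 CPM in wild-type liver. Its log2 difference was 0.47 ± 0.13 (SE, edgeR adjusted p = 0.0123). That call was lost without wild-type brain replicate 3 (adjusted p = 0.0633) or wild-type liver replicate 2 (adjusted p = 0.0507).

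Both synthases use those groups, and they differed in tissue pattern. Sms stood at 61.8 to 73.5 CPM in wild-type brain and at 7.65, 6.01 and 6.70 CPM in wild-type liver. Its log2 difference was 3.34 ± 0.14 (SE, edgeR adjusted p = 3.65e-07), or 10.1-fold, which was the highest among the members. It was 3.11 ± 0.13 (SE) in the knockout. Srm stood at 10.4, 14.1 and 13.7 CPM in wild-type brain and at 13.8, 11.7 and 11.3 CPM in wild-type liver. The tissues overlapped, and the log2 difference was 0.06 ± 0.17 (SE, edgeR adjusted p = 0.734) in the wild type and −0.00 ± 0.17 (SE) in the knockout.

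The catabolic genes also ran in opposite directions. Sat1 stood at 15.9, 15.5 and 16.8 CPM in wild-type brain, under every liver library, with a log2 difference of −1.10 ± 0.10 (SE, edgeR adjusted p = 2.47e-05). In the knockout it was −1.40 ± 0.15 (SE). Smox stood at 19.5, 15.4 and 19.9 CPM in wild-type brain and at 3.10, 2.84 and 3.36 CPM in wild-type liver. Its log2 difference was 2.56 ± 0.17 (SE, edgeR adjusted p = 3.87e-06) in the wild type and 2.39 ± 0.20 (SE) in the knockout. Scaling to library totals in place of TMM moved the median log2 difference of all genes from 0.211 to 1.05 in the wild type and from 0.206 to 1.085 in the knockout. With that scaling Azin1 turned to 0.39 in the wild type and 0.51 in the knockout and passed as higher in brain in both (edgeR adjusted p = 0.00575 and 0.0272). Srm, at 0.90 and 0.88, also passed as higher in brain in both (edgeR adjusted p = 0.0011 and 0.00119). Odc1 no longer passed (−0.01 and −0.22), and Sat1 no longer passed in the wild type (−0.26). Higher genes made up 55.8% of all calls in the wild type with TMM and 74.4% with library totals, and 55.3% and 75.1% in the knockout. Sms, Smox, Oaz2 and Oaz1 kept their direction under both scalings.

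**Figure D4:**
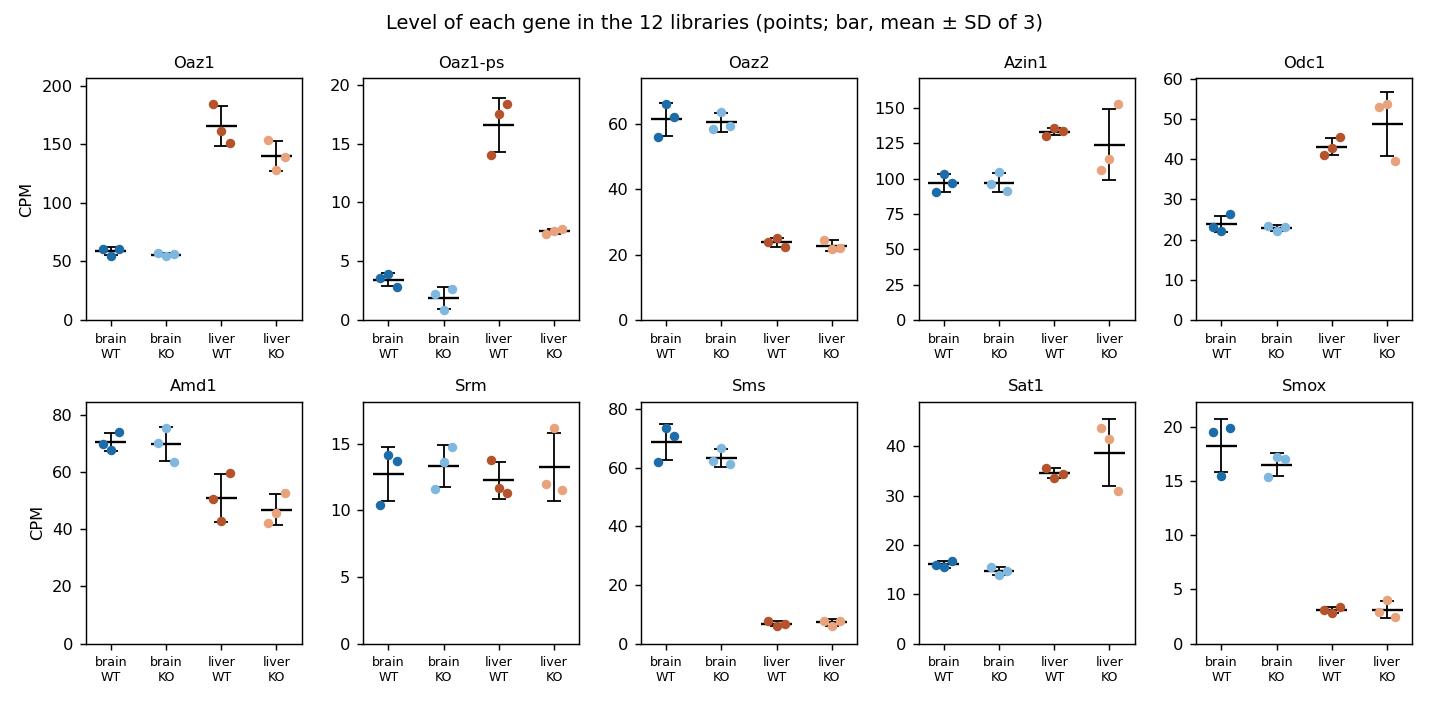
CPM of each member (y axis, linear from 0, own scale per panel) in the 12 libraries by tissue and genotype (WT, wild type; KO, knockout). Points are libraries, and bars the mean ± SD of 3. Sms and Smox are high in brain and low in liver, Oaz1 and Oaz1-ps the reverse, and Srm lies between 10.4 and 16.2 CPM in all libraries.

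**Figure D5:**
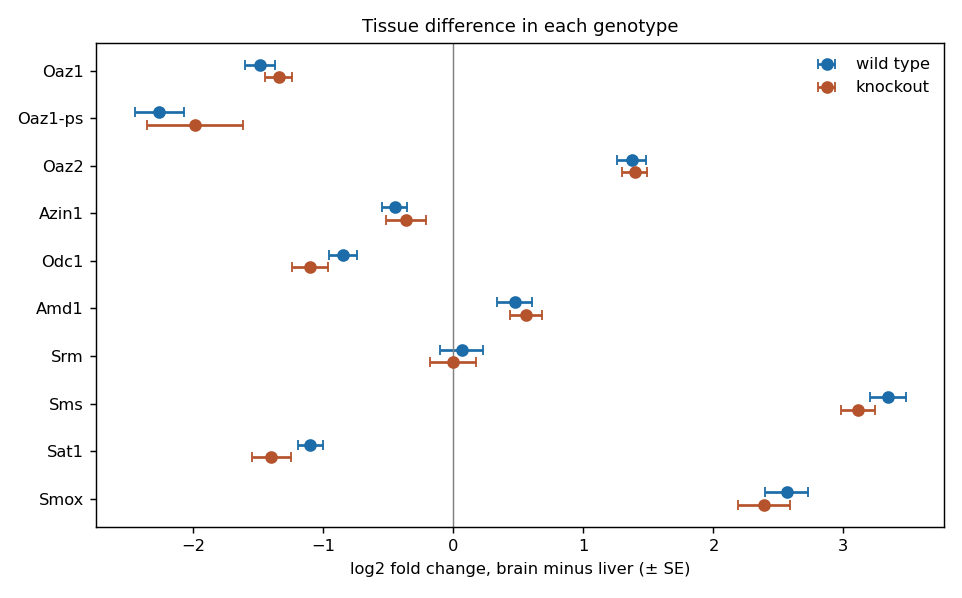
Log2 difference between brain and liver (x axis) for each member (y axis), fitted separately in wild-type and knockout libraries, with bars of ± 1 SE from edgeR. The values run from 3.34 for Sms to −2.26 for Oaz1-ps in the wild type and from 3.11 to −1.98 for the same genes in the knockout.

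Levels of different genes were compared per kilobase of merged exons. In wild-type brain the means were 23.0 CPM per kb for Oaz1, 20.5 for Oaz2, 19.9 for Amd1 and 15.5 for Azin1. Sms followed at 11.4 CPM per kb, Srm at 7.97, Odc1 at 7.01, Sat1 at 5.80, Oaz1-ps at 5.02 and Smox at 4.69. In this order Oaz1 and Oaz2, Oaz2 and Amd1, Srm and Odc1, Sat1 and Oaz1-ps, and Oaz1-ps and Smox overlapped between libraries. In wild-type liver Oaz1 stood alone at 64.8 CPM per kb. Oaz1-ps (24.3) overlapped with Azin1 (21.3), and Amd1 (14.4) with Odc1 (12.7) and Sat1 (12.5). Oaz2 (7.96) overlapped with Srm (7.66), and Sms (1.13) and Smox (0.796) were the lowest. Transcript length weighs on these levels: over the longest coding transcript Oaz1 would stand at 54.9 in brain and 155 in liver, and Azin1 and Sat1 in liver at 27.4 and 27.2, both above the 24.3 of Oaz1-ps. On that scale Odc1 (19.5) also lay above Amd1 (15.9) in liver, and in brain Oaz1-ps (5.02) lay below Smox (7.94), and Sat1 (12.6) above Odc1 (10.8) and Srm (9.53).

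Of 35 further genes of polyamine metabolism, 28 were tested in brain and 29 in liver between genotypes. Of all genes tested 0% passed in either tissue, and 0 of these pathway genes passed. Their median log2 differences were −0.025 in brain and −0.088 in liver, beside medians of −0.006 and 0.005 over all genes tested. In liver Gatm, which makes guanidinoacetate from arginine, had an unadjusted p under 0.05, as had 3.5% of all genes, with a difference of 0.26 ± 0.11 (SE, edgeR adjusted p = 0.992). The liver groups of 6 of the 29 did not overlap, 2 higher and 4 lower in the knockout, against 9.64% of all genes, and in brain 0 of 28 stood apart in this way, against 4.23%. Between wild-type brain and liver 30 of 32 passed, 13 higher and 17 lower in brain, beside the 78.6% of all genes. The partners and upstream enzymes of Odc1 split 3 to 3. The 3 catabolic genes Paox, Sat2 and Aldh7a1 were all lower in brain. Of these Sat2 was nearest the threshold, at −0.63 ± 0.24 (SE, edgeR adjusted p = 0.0439), and its tissue groups overlapped. The transporters split 6 to 5, the genes of S-adenosylmethionine and methionine salvage 2 to 5 among 8 tested, and those of hypusination 2 to 1 among 4. With a library left out the count was 25 to 29, with the lowest without wild-type liver replicate 1, and Dhps, the first enzyme of hypusination, did not pass with the replicate block (adjusted p = 0.0642 in edgeR, against 0.0405). In the knockout libraries 29 of 32 passed, 12 higher and 17 lower in brain, beside 78.7% of all genes (43.5% higher and 35.2% lower).

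Among the called genes with large tissue differences were the following. Mat1a, the liver S-adenosylmethionine synthetase, stood at 1937 CPM ± 262 in wild-type liver against 0.114 CPM ± 0.0250 in wild-type brain (SD, n = 3). Agmat, which hydrolyses agmatine, stood at 98.3 CPM ± 10.3 against 0.369 CPM ± 0.0611, and Slc7a2, a cationic amino acid transporter, at 1206 CPM ± 73.2 against 26.7 CPM ± 2.17. In the other direction Atp13a4, a P5-type ATPase of the family that holds polyamine transporters, stood at 8.90 CPM ± 2.06 in wild-type brain and had 0 to 1 counts per wild-type liver library. Eif5a2, a target of hypusination, the modification made from spermidine, stood at 54.0 CPM ± 10.9 in brain against 0.521 CPM ± 0.162 in liver. Azin2, a second antizyme inhibitor, stood at 14.9 CPM ± 0.178 against 1.77 CPM ± 0.213. Slc7a1, a cationic amino acid transporter, stood at 39.1 CPM ± 5.37 against 2.73 CPM ± 0.472, and Gatm at 58.4 CPM ± 25.4 against 12.5 CPM ± 1.09.

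Finally, members were compared with Oaz1-ps across the 12 libraries after centring each gene within its tissue. This likeness uses the libraries and the measure by which Oaz1-ps was chosen and is a description only. Pearson's r with Oaz1-ps over the 12 libraries was 0.492 for Oaz1 and −0.266 to 0.0876 for the other members. The 3 most alike of 20140 genes were Nxt1, a factor of messenger RNA export, at r = 0.916, and Ddx28, a mitochondrial RNA helicase, and Notum, a secreted Wnt deacylase, at 0.882 and 0.88. Nxt1 stood at 4.00, 4.19 and 4.98 CPM in wild-type liver and at 3.26, 3.66 and 3.20 CPM in knockout liver. In brain it stood at 2.48, 2.38 and 1.97 CPM against 2.13, 1.54 and 2.30 CPM. Its lowest value, like that of Oaz1-ps, was in knockout replicate 2, which the choice of Nxt1 by this correlation favours.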

How the data were processed

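Total RNA of brain and liver from Vaultrc5+/+ and Vaultrc5-/- mice was isolated with TRIzol, treated with DNase, depleted of ribosomal RNA and sequenced single-end as stranded ligation libraries on an Illumina instrument, per the labels' protocols. Reads were trimmed with cutadapt and aligned with STAR to mm10, per the submitters' processing notes. The counting tool, its use of strand and the read length are not given in the sources used here. The values deposited by the authors are estimated counts of each gene in each library, with no normalization and no pooling of replicates.

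All 55450 identifiers and symbols matched GENCODE M21 (GRCm38), which gave positions, lengths and transcript sequences. Shared stretches were found by exact match of every stretch of 50, 75 or 100 bases on the transcript strand. Counts were rounded and fitted over all genes with edgeR 4.0.16 (R 4.3.3): quasi-likelihood F-test, robust, TMM, filterByExpr by group (minimum count 10, minimum total 15), Benjamini-Hochberg adjustment, threshold 0.05. The SE is the absolute log2 difference divided by the square root of F. Each comparison used its own 6 libraries, and the difference between tissues used all 12. CPM used TMM effective sizes over the 12 libraries, on which 3 counts correspond to 0.123 to 0.148 CPM in brain and 0.150 to 0.169 in liver. Fits were also run on simulated counts of independent libraries, and the outcome is not given here.

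Replicates were separate libraries: for every pair within a group a chi-square over genes was 27.2 to 228 times its degrees of freedom. Replicate numbers come from the titles. In liver, same-numbered libraries of the 2 genotypes deviated together (correlations 0.352, 0.413 and 0.385 over genes) and the numbers were taken to pair them. In brain the correlations were 0.746, 0.754 and 0.0029. Replicate 3 showed no such likeness, so the numbers were not taken to pair the libraries there. The main fits held no replicate block in either tissue, so their SEs and p-values do not take any such pairing into account.

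The members and all lists were chosen with earlier results of these data known. Genes named beyond the members were the called pathway genes with the largest tissue difference (up to 5 per direction), the 3 most like Oaz1-ps, genes whose fractional counts complement a member's, and 3 label checks. Some genes met by this rule are not reported here. Riok2, Lnpep, AC154200.1, Amd2, Amd-ps3, Sms-ps, Paox, Sat2, Aldh7a1 and Dhps were named outside this rule after their values were seen. Alternatives tried were other scalings, DESeq2 1.42.0, other filters, robust estimation off, unrounded counts, a threshold of 0.1, the pair summed, all libraries in 1 fit, the replicate block, each library left out, and, added after seeing the data, each gene's sequence relatives summed into it.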

Additional observations from a re-analysis of the deposited data

How the results depend on the processing

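The count of members called between genotypes was 0 in brain, in liver (8 members) and for the difference between tissues (8 members) under every alternative run. Over all genes, calls in the liver genotype comparison were 0 with the settings used, 10 with DESeq2, 4 with no filter beyond 1 count, 2 with the replicate block and 0 to 1 with a library left out (1 without wild-type liver replicate 2). For the difference between tissues they were 0, 1 with DESeq2 and 2 with the replicate block, and in brain 0 throughout. The cause of these changes was not tested. In brain, where the numbers were not taken to pair the libraries, the replicate block moved Oaz1-ps from −0.85 to −0.92 and called 0 genes. Apart from the sign of Srm in the knockout tissue comparison, it changed no direction or call of a member.

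The brain genotype difference of Oaz1-ps ran from −1.16 to −0.50 with a library left out, and its brain share difference from −2.90 to −1.42 points. The share difference between wild-type tissues ran from −4.73 to −2.86 points. Taken per kilobase of merged exons, the brain share difference was −6.85 points and that between wild-type tissues −9.40 points. Both rest on the merged length of Oaz1, which exceeds that of its full-length transcript. Signs that turned belonged to differences near 0 that had not passed, except where noted. With all libraries in 1 fit Azin1 in brain was 0.0026 between genotypes, and with library totals Smox in liver was −0.0315. In the tissue comparison library totals turned Azin1 to 0.3875 in the wild type, where it had passed, and to 0.5061 in the knockout. The knockout tissue difference of Srm turned to 0.8799 with library totals, 0.0248 with no filter, 0.0037 with a mean of 1 CPM as the filter, 0.0057 with the replicate block and 0.0119 with all libraries in 1 fit.

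With a library left out, genotype differences in brain ran from −0.0985 to 0.0239 for Oaz2, −0.0609 to 0.0421 for Azin1, −0.1206 to 0.0076 for Odc1, −0.074 to 0.0373 for Amd1 and −0.0773 to 0.1443 for Srm. In liver they ran from −0.2819 to 0.0249 for Azin1, −0.2276 to 0.0142 for Amd1, −0.0593 to 0.2173 for Srm and −0.209 to 0.1529 for Smox. The difference between tissues ran from −0.1036 to 0.0635 for Oaz2, −0.2201 to 0.0177 for Amd1, −0.1258 to 0.2204 for Srm, −0.0628 to 0.2961 for Smox and −0.6029 to 0.0647 for Oaz1-ps. Srm between tissues ran from −0.0742 to 0.1761 in the wild type and −0.1114 to 0.1443 in the knockout. Azin1 in the knockout tissue comparison passed as higher in brain with library totals (adjusted p = 0.0272), and as lower in brain with all libraries in 1 fit (adjusted p = 0.0259), at a threshold of 0.1, and without knockout liver replicate 1 (adjusted p = 0.0299 in edgeR). Oaz1-ps had 19.57 to 95.60 counts per brain library, and how much of its brain spread comes from depth was not tested.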
